A study of Triticum aestivum with 4 samples.

Results

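The miRNAs described here are those that miRBase registered first in wheat under the numbers miR9652 to miR9679 and miR9772 to miR9783. They were chosen by name from the known-miRNA section of the deposited table, with no use of their expression values. The rule found 41 of the 282 known miRNAs, and of the 348 miRNAs listed in all. The lower block of numbers gave 30 miRNAs of 23 families and the upper block 11 miRNAs of 9 families. The tissue was the crown, the base of the wheat shoot in which the apical meristem sits through winter, of field-grown Shimai 22, a semi-winter cultivar. Crowns were taken from plants with 3 leaves, in winter dormancy, after the spring green-up and during jointing, when the stem begins to elongate. No treatment other than the growth stage is given. For each stage, equal amounts of RNA from 3 biological replicates were combined into 1 small RNA library. There was thus no replicate error and no test between stages, and all intervals below cover counting error only. Values are reads per 1000000 mapped reads (RPM), and where 4 values follow each other they stand for the stages in the order of growth, from 3 leaves to jointing. They count whole small RNA reads and are not divided by length. The libraries held about 20530000 to 21890000 mapped reads, as recovered from the steps between low values, so that 1 read was worth 0.0457 to 0.0487 RPM.

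miRNAs are cut from hairpin precursors, and the names give the arm of the hairpin from which the read came (5p or 3p). In plants they act mainly by near-complete pairing with mRNAs, which are then cleaved or translated less. Families known from a single genus are usually young, often have few members, and their functions are known for a small number of them. Target cleavage has been mapped in wheat for miR9662a-3p (mitochondrial transcription termination factor genes, mTERF), miR9674b-5p (an Rf1 gene of the pentatricopeptide repeat family), miR9772 (F-box genes) and miR9676-5p (a gene annotated as biostress resistance related). Several proteins of the large pentatricopeptide repeat family restore fertility in cytoplasmic male sterility. miR9674 and miR9772 are also known from Aegilops tauschii, the donor of the wheat D genome. For the other families described here no target is given.

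The sequences below, copied from the deposited table, are those on which the results turn, written 5′ to 3′ with the seed (bases 2 to 8) in capitals. The first 8 were abundant at the early stages and lower at jointing, and the last 7 are members that were highest at jointing.
miR9662a-3p: uUGAACAUcccagagccaccg
miR9674b-5p: aUAGCAUCauccauccuaccc
miR9674b-3p: uGAAUUUGuccauagcaucag
miR9773: uUUGUUUUuauguuauuuugugaa
miR9652-5p: cCUGUUUGucauuaaguuucuu
miR9772: uGAGAUGAgauuaccccauac
miR9675-3p: uUUAUGAUcacucucguuuug
miR9778: uGCAUCAUcucgaacucgucg
miR9672b: uACCACGAcugucauuaagca
miR9672a-3p: cCACGACUgucauuaagcauc
miR9676-5p: uGGAUGUCaucguggccguaca
miR9653a-3p: uUUGAGACuuuggccauggcc
miR9653b: uGGCCAAGgucucuugaggcu
miR9666c-5p: gCCAUCAUacgcccaaccgua
miR9776: uGGACGAGgaugugcagcugc

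The 41 miRNAs had 41 different seeds, so none could be grouped with another by its seed. Outside the set, the seed of miR9773 was shared with miR2275b-3p. miR9672a-3p and miR9672b were the same sequence shifted by 2 bases, with 19 identical bases in the overlap of 19. Of the 32 families, 24 had 1 listed miRNA and 8 had several.

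By the length column 26 of the 41 miRNAs had 21 nt (63.4%), 11 had 22 nt, 3 had 24 nt and 1 had 20 nt. Among the 241 other known miRNAs, 48.1% had 21 nt and 30.7% had 24 nt, against 7.32% of 24 nt here. For miR9674b-5p the column gave 22 nt while the listed sequence had 21 letters, the one disagreement of this kind among the 348 miRNAs. The name gave a 3p arm for 18 miRNAs, a 5p arm for 11 and none for 12. A uridine, the first base that AGO1 of Arabidopsis favours, began 20 of the 41 sequences (48.8%), against 42.3% of the other known miRNAs.

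Members of these families were among the abundant miRNAs of the crown. Of the summed RPM of all listed miRNAs they held 19.4%, 17.6%, 12.0% and 15.6% at the 4 stages. In some library 16 of them reached at least 100 RPM, 17 lay above 5 and under 100 RPM, and 8 never exceeded 5 RPM. A value above 0 in all 4 libraries was listed for 34 of the 41 (82.9%), against 131 of the 241 other known miRNAs (54.4%). The median member had 33.8, 15.9, 18.6 and 14.5 RPM, and the medians of the other known miRNAs were 15, 14.7, 16 and 8.3 RPM. The ratio of medians was thus largest at the three-leaf stage.

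Summed over all members, the RPM stood at 27725, 23875, 12834 and 10777. The first sum was 2.57 times the last, a log2 change of -1.36, against -0.98 for all listed miRNAs outside the set. miR9672b alone made up 4929 RPM of the last sum. Without miR9672b the sums were 27229, 23587, 12340 and 5848 RPM, and the first was 4.66 times the last. At the three-leaf stage 5 miRNAs, miR9662a-3p, miR9674b-5p, miR9773, miR9674b-3p and miR9652-5p, made up 81.1% of the sum of the set, and at jointing they made up 33.1%. The share of miR9672b was 1.79%, 1.21%, 3.85% and 45.7% at the 4 stages.

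**Figure D1:**
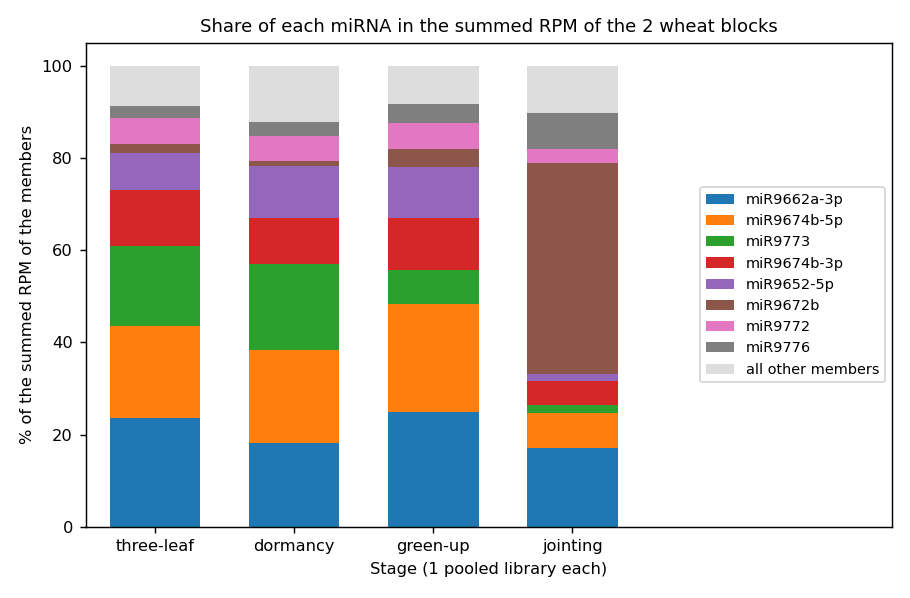
Share of the 8 miRNAs with the largest summed RPM in the total of the set, in percent on the vertical axis, for 1 pooled library per stage; the grey part holds all other members. miR9672b takes 45.7% at jointing and between 1.21% and 3.85% in the 3 earlier libraries.

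The most abundant member was miR9662a-3p, the miRNA directed against mTERF mRNAs, which code for regulators of organelle gene expression. It had 6522.1 RPM in three-leaf crowns, 4329.7 in dormant ones, 3200.6 after green-up and 1834.8 during jointing. Each library was lower than the one before, and the log2 change from the first to the last was -1.83 (95% counting interval -1.85 to -1.81). When the libraries were scaled to the summed RPM of listed miRNAs this change was -0.78, and it no longer passed 2-fold. Among the 41 miRNAs miR9662a-3p ranked 1, 3, 1 and 2 at the 4 stages.

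miR9674b-5p, directed against the Rf1 gene, followed with 5522.4, 4811.3, 2997.5 and 820.7 RPM. Its sister entry miR9674b-3p had 3336.4, 2371.9, 1444.8 and 541 RPM. Both were lower in each later library. Their log2 changes from the three-leaf stage to jointing were -2.75 (-2.77 to -2.73) and -2.62 (-2.65 to -2.60). The 5p entry exceeded the 3p entry 1.66, 2.03, 2.07 and 1.52 times at the 4 stages, so this ratio was lowest at jointing. The 2 listed sequences paired over 7 of 13 bases. The end of the 3p entry and the start of the 5p entry were identical in 9 of 10 bases. The arms are thus taken from the names alone, and whether the entries come from opposite arms of 1 hairpin was not tested. miR9674b-3p had 19 of 21 bases in common with miR5064, a known miRNA outside the set with 224.4, 177.7, 93.2 and 45.6 RPM. Both sequences are shown for comparison.
miR9674b-3p: uGAAUUUGuccauagcaucag
miR5064: uUAAUUUGuccauagcauccg
Like miR9674b-3p, miR5064 was lower in each later library.

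miR9772, with F-box mRNAs as targets, went through 1606.4, 1246.5, 720 and 335.4 RPM, a log2 change of -2.26 (-2.30 to -2.22) from the first stage to the last. miR9772a-3p, which pairs with it over 16 of 19 bases, had 2.6, 1.5, 1.1 and 1.7 RPM. The pair was the most unequal of the set, with miR9772 higher 618, 831, 655 and 197 times. At 24 to 56 reads for miR9772a-3p, the intervals of the first 3 ratios overlapped, and that at jointing (143 to 286) lay below all of them.

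The largest fold difference among members listed above 0 in every library was that of miR9773, the longest abundant member with 24 nt and a GC content of 16.7%. It had 4852.4 RPM in three-leaf crowns, 4477.2 in dormant ones, 959.9 after green-up and 200.1 during jointing, so that the first library exceeded the last 24.2 times. Nearly all of the difference lay in the spring steps, with log2 changes of -2.22 between dormancy and green-up and -2.26 between green-up and jointing. No target of it is given.

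The log2 changes of the miR9652 arms between dormancy and green-up, -0.92 (5p) and -0.86 (3p), were smaller than that of miR9773. miR9652-5p had 2263.7, 2688.1, 1419.7 and 166.6 RPM, with the highest value at dormancy. miR9652-3p had 217.9, 214.1, 118 and 40.9 RPM. From green-up to jointing the log2 change was -3.09 (-3.14 to -3.04) for the 5p arm and -1.53 (-1.64 to -1.42) for the 3p arm. The ratio of 5p to 3p was accordingly 10.4, 12.6 and 12.0 in the first 3 libraries and 4.07 (3.78 to 4.39) at jointing.

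A further group was highest at dormancy and lower at green-up and jointing. miR9778 stood at 602.6, 705, 44.3 and 60.3 RPM, and its dormancy library exceeded green-up 15.9 times, the largest fold of any member over that step. miR9675-3p had 441.1, 569.6, 75.9 and 28.4 RPM, with dormancy 7.50 times above green-up. For miR9778 and miR9675-3p both early libraries lay far above both later ones. miR9669-5p had 450.2, 889.1, 350.3 and 119.2 RPM. Its log2 change to dormancy, 0.98, was just under 2-fold as deposited and just over it (1.02 to 1.06) under each of the 3 other scalings. miR9663-5p had 134.6, 184.2, 92.8 and 14.2 RPM and was also highest at dormancy.

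**Figure D2:**
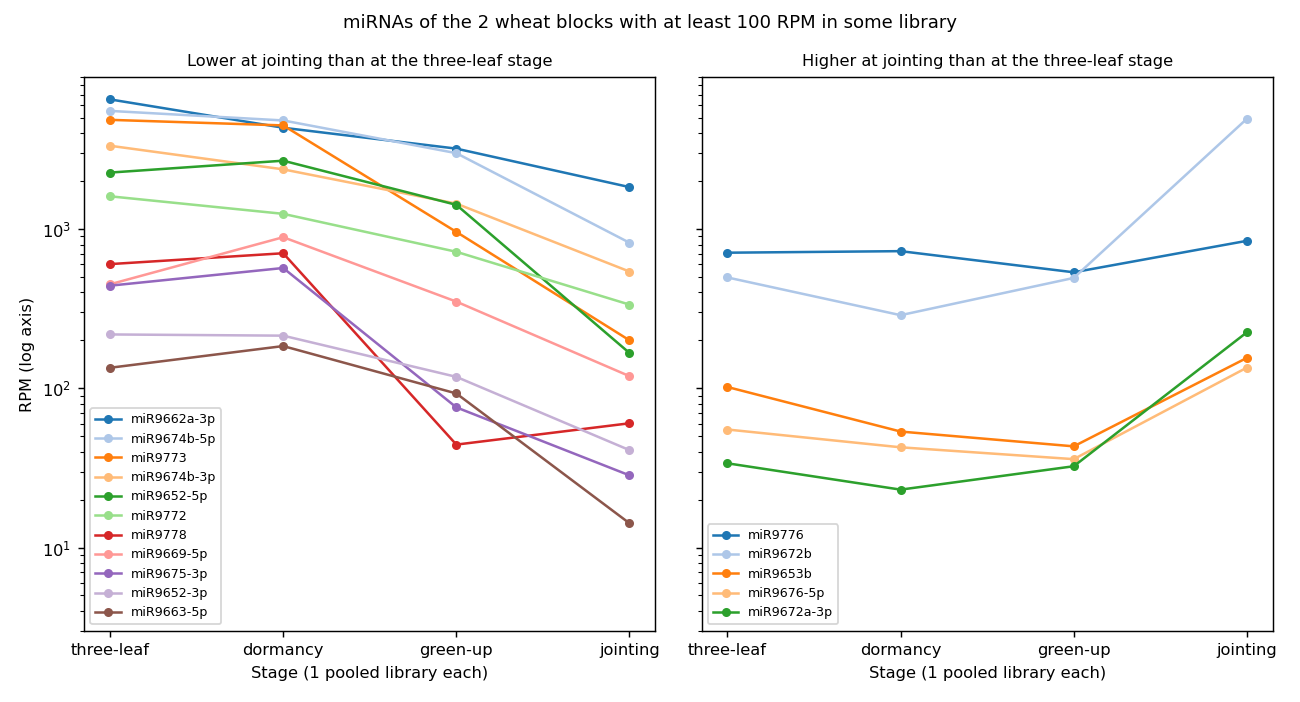
RPM on a log axis for the 16 miRNAs with at least 100 RPM in some library, 1 point per pooled library, split by whether the jointing library was lower (left, 11 miRNAs) or higher (right, 5 miRNAs) than the three-leaf library. On the left 10 of the 11 were lowest at jointing and miR9778 at green-up; on the right miR9672b stands at 493.5 RPM in the green-up library and 4929 RPM in the jointing library.

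In contrast to the sum of the set, the miR9672 family was highest at jointing. miR9672b had 496.7 RPM in three-leaf crowns, 287.9 in dormant ones, 493.5 after green-up and 4929 during jointing. It was thus 9.92 times as high at jointing as at the three-leaf stage, a log2 change of 3.31 (3.28 to 3.34), and ranked 9, 11, 8 and 1 among the 41 miRNAs. miR9672a-3p, the shifted sequence, had 33.8, 23.1, 32.4 and 224.8 RPM and followed the same course. The ratio of miR9672b to miR9672a-3p was 14.7, 12.5, 15.2 and 21.9, and the interval at jointing (21.3 to 22.6) lay above those of the other stages. Since the sequences overlap by 19 bases, they do not count as independent measurements of the family.

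Other families that were highest at jointing had lower levels. miR9676-5p, directed against a biostress resistance related gene, had 55.1, 42.6, 35.9 and 134.9 RPM, a log2 change of 1.29 (1.19 to 1.39) from the three-leaf stage to jointing. The jointing library lay above the other 3, which decreased from the three-leaf stage to green-up. miR9653a-3p had 17.9, 8.6, 27.3 and 98.3 RPM, and miR9653b had 101.9, 53.5, 43.2 and 155.3 RPM. Both were highest at jointing, but miR9653b exceeded its three-leaf value 1.52 times and miR9653a-3p 5.49 times. The ratio of miR9653b to miR9653a-3p was 5.69 and 6.22 in the early libraries and 1.58 in both later ones.

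miR9664-3p had 13.8, 13.7, 7.6 and 29.6 RPM, a log2 change of 1.10 (0.90 to 1.31), so its counting interval included 2-fold. miR9666c-5p had 11.6, 8.4, 7.6 and 38.1 RPM. For both, green-up was the lowest library and jointing the highest. In the same family miR9666a-3p was listed at 8 RPM at jointing and at 0 before, while miR9666b-3p was listed at 3.6, 3.6 and 3.4 RPM and then at 0. Their sequences are identical in 21 of 22 bases.
miR9666a-3p: cGGUAGGGcuguaugauggcga
miR9666b-3p: cGGUUGGGcuguaugauggcga
A difference of 1 base is within the mismatch that the authors allowed when assigning reads. miR9656-3p was listed at 1.3 RPM (28 reads), 0, 0.8 RPM (18 reads) and 6.4 RPM (133 reads), so that the jointing library alone passed 5 RPM.

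As deposited, miR9776 was the most even of the abundant members. It had 710.6, 726.7, 535.3 and 843.8 RPM, and its highest library exceeded the lowest 1.58 times. With the summed RPM of the set smaller at jointing, its share of it went from 2.56% at the three-leaf stage to 7.83%. miR9776-3p, which pairs with miR9776 over 18 of 19 bases, had 7.9, 8.9, 4.6 and 7.4 RPM. The ratio of the pair was 89.9, 81.7, 116 and 114. The interval at dormancy (70.5 to 94.9) lay just below those of green-up (95.4 to 143) and jointing (97.3 to 134). That at the three-leaf stage (77.5 to 105) overlapped all the others. miR9782, of 24 nt, had 10.5, 11.1, 11 and 10.5 RPM, the smallest spread of all members listed in every library. miR9657c-3p had 41.2, 31.2, 27.4 and 27.8 RPM and miR9657b-5p 7.5, 6.6, 3.9 and 5.8 RPM. As deposited, both also stayed within 2-fold in all 4 comparisons made here. Under each of the scalings given below, miR9776 and miR9782 were more than 2-fold higher at jointing than at the three-leaf stage.

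**Figure D3:**
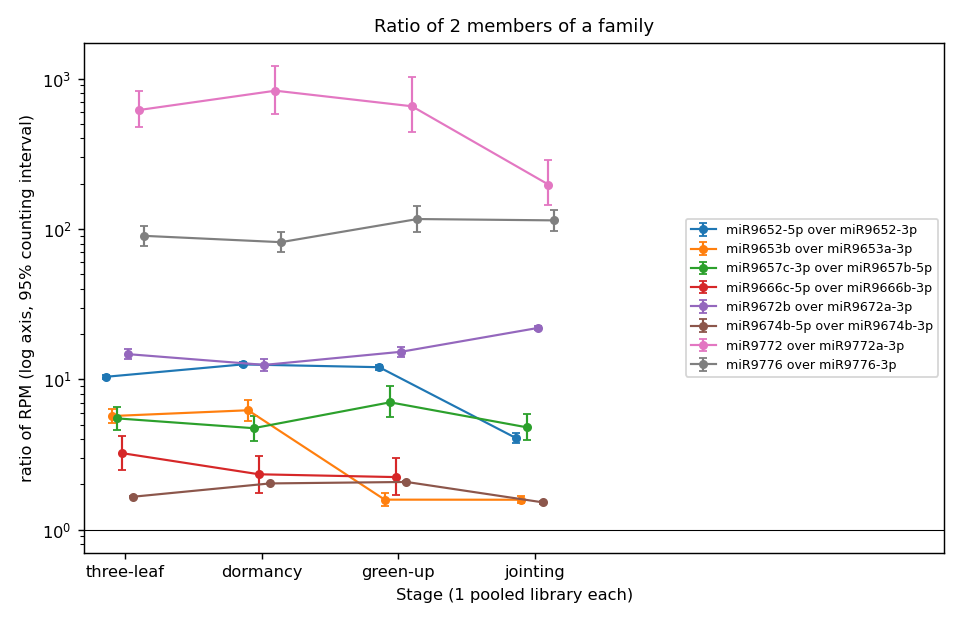
Ratio of the RPM of 2 members of a family on a log axis, with 95% counting intervals, for 8 pairs and 1 pooled library per stage; no ratio is drawn for miR9666 at jointing, where miR9666b-3p was listed at 0. The miR9652 ratio is 12.0 at green-up and 4.07 at jointing, and the miR9653 ratio 6.22 at dormancy and 1.58 at green-up.

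Few members were highest at green-up. miR9654b-3p had 49.4, 30.9, 90.2 and 49.1 RPM, so that the green-up library exceeded dormancy 2.92 times while the first and last libraries were nearly equal. miR9658-3p had 26.2, 19.4, 31 and 8.3 RPM. miR9655-3p (4.8, 4.8, 8.2 and 0.5 RPM, about 10 reads at jointing) and miR9670-3p (3.4, 1.7, 9.4 and 2.1 RPM) passed 5 RPM at green-up alone. The fifth, miR9659-3p, was listed at 0.3 RPM there and at 0 in the other libraries. All 5 carried a 3p arm in their name.

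Among the other members, miR9774 had 44.4, 15.9, 4.9 and 14.5 RPM and was lowest at green-up. miR9673-5p, the single member of 20 nt, had 67.5, 64.3, 18.6 and 12.8 RPM, and miR9661-5p had 13.5, 14.4, 6 and 1.2 RPM. Both lay higher in the early libraries than in the later ones. miR9783, of 24 nt, was listed at 39.5 RPM in three-leaf crowns and at 0 in the other libraries. For fold changes a listed 0 was set to 3 reads, or 0.137 to 0.146 RPM. By counting alone, the 95% interval of a 0 reached up to 0.169 to 0.180 RPM. The smallest values listed above 0 in these libraries stood for about 4 to 13 reads, so a 0 may also be a value that was left out below some minimum. The 8 members that never exceeded 5 RPM (miR9659-3p, miR9660-5p, miR9666b-3p, miR9677a, miR9679-5p, miR9772a-3p, miR9775 and miR9781) had highest values of 0.3 to 4.4 RPM.

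To place the members among all miRNAs, a miRNA was counted as lower or higher when it differed more than 2-fold between 2 libraries and exceeded 5 RPM in at least 1 of them. From the three-leaf stage to jointing, 16 of the 31 members above 5 RPM were lower and 8 were higher, while 54.6% of the 260 listed miRNAs tested were lower and 16.9% were higher. The 16 lower members (51.6%) were thus near the background share, and the 8 higher ones (25.8%) above it. The 8 include both overlapping miR9672 sequences, miR9666a-3p, listed at 0 before jointing, and miR9664-3p, whose interval included 2-fold. The difference thus rests on few members and was not tested. The median log2 change was -1.61 for the members and -1.25 for all 260. Scaling the libraries to the summed listed RPM, to that sum without miR159a.1 and miR168a-5p, or by the median ratio raised every log2 change of this comparison by 1.04 to 1.05. Each of these gave 12 lower and 12 higher members. miR9658-3p, miR9662a-3p, miR9669-5p and miR9774 were then no longer lower by 2-fold, and miR9653b, miR9654b-3p, miR9776 and miR9782 were higher by 2-fold. The direction turned from slightly lower to higher for miR9654b-3p, miR9657b-5p, miR9657c-3p and miR9776-3p under all 3 scalings. The share of miRNAs called lower was then 36.2% and that called higher 27.3%.

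**Figure D4:**
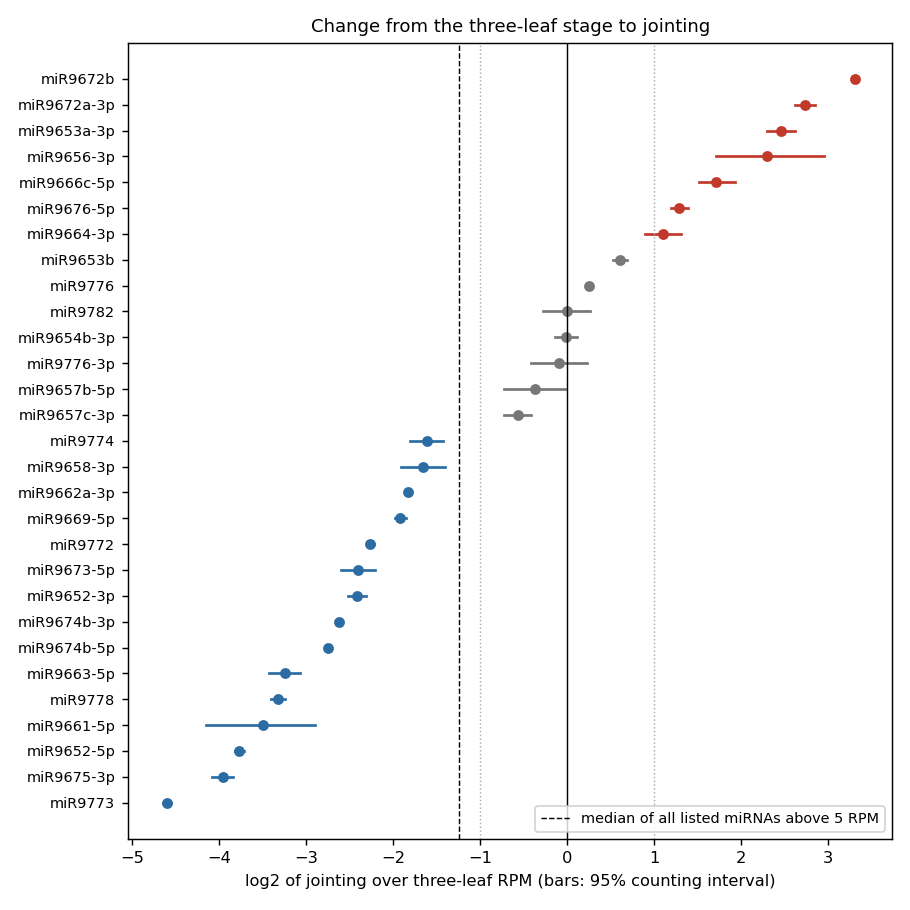
Change of each member from the three-leaf stage to jointing as log2 of the RPM ratio, with 95% counting intervals, for the 29 members above 5 RPM in either library and listed above 0 in both; blue and red mark more than 2-fold lower and higher, and the dashed line is the median of all 260 miRNAs, -1.25. The values run from -4.60 for miR9773 to 3.31 for miR9672b.

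Between the three-leaf stage and dormancy most members stayed within 2-fold. Of 29 members tested, 3 were lower (miR9653a-3p, miR9774 and miR9783) and 0 were higher, where 16.3% and 10.3% of 252 miRNAs were lower and higher. From dormancy to green-up, 7 of 30 members were lower and 3 were higher, against 28.8% lower and 17.2% higher among 250 miRNAs. The lower ones were miR9661-5p, miR9669-5p, miR9673-5p, miR9675-3p, miR9773, miR9774 and miR9778, and the higher ones miR9653a-3p, miR9654b-3p and miR9670-3p. The split of 7 and 3 became 6 and 6 when scaled to the listed sum, where 23.2% and 22.8% of all 250 miRNAs were lower and higher. It became 4 and 7 without miR159a.1 and miR168a-5p in that sum, against 16.8% and 34%, and 5 and 6 by the median ratio, against 21.2% and 26%. The members' split thus moved in the same direction as that of all miRNAs.

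From green-up to jointing, 13 of 32 members were lower and 10 were higher (31.2%), against 37.8% lower and 16.4% higher among 238 miRNAs. The median log2 change was -0.30 for the members and -0.70 for all 238 as deposited. The higher members were those of miR9653, miR9656, miR9664, miR9672 and miR9676, together with miR9666a-3p, miR9666c-5p and miR9774. The members' median turned positive when scaled to the listed sum (0.33) and by the median ratio (0.28). It stayed negative, at -0.027, for the listed sum without miR159a.1 and miR168a-5p. The medians of all 238 were -0.06, -0.12 and -0.42 in the same order. All 3 scalings raise the log2 changes of this step, so a higher call could not be lost. Members lower and higher numbered 8 and 14 for the listed sum, with 23.5% and 21.01% of all 238 miRNAs lower and higher. They numbered 12 and 10 without miR159a.1 and miR168a-5p, against 28.6% and 17.2%, and 8 and 14 by the median ratio, against 24.4% and 20.6%.

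With members of a family summed, 26 of the 32 families exceeded 5 RPM in some library. As deposited, 18 of these were lower at jointing than at the three-leaf stage, 7 were higher and miR9782 was equal. The 7 were miR9653, miR9656, miR9664, miR9666, miR9672, miR9676 and miR9776, and all 7 had their highest sum at jointing. Their sums at jointing ran from 6.4 RPM for miR9656 to 5153.8 RPM for miR9672. In 12 of the 26 families jointing was the lowest library. No count over the families outside the set is given here. The scalings raise each log2 change from the three-leaf stage to jointing by 1.04 to 1.05. The changes of miR9654 (-0.009), miR9657 (-0.54), miR9670 (-0.70) and miR9782 would then also be positive.

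Counted over all 41 miRNAs, 15 were highest in three-leaf crowns, 11 in dormant ones, 5 after green-up and 10 during jointing, where miR9666b-3p and miR9677a had equal highest values in 2 libraries and were counted at the earlier one. Among the 33 members above 5 RPM in some library, 10 were highest at jointing (30.3%). The corresponding share was 14.3% of the 196 other known miRNAs and 4.17% of the 48 wheat_miRNAs. The wheat_miRNAs are sequences that miRBase does not list, found in wheat leaves or in these crowns. Of the 10 members, miR9656-3p and miR9666a-3p passed 5 RPM at jointing alone, so the level filter itself set their place there. Such cases were not counted in the other sets. Green-up was the highest library for 12.1% of the members, 29.1% of the other known miRNAs and 12.5% of the wheat_miRNAs. The low share at green-up was thus not particular to the members. Scaling raised the count of members highest at jointing from 10 to 17 of 41 under each of the 3 scalings. These scalings raise the jointing values of all miRNAs relative to the earlier libraries. No scaled count of the other miRNAs is given here, so the 17 cannot be set against theirs.

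**Figure D5:**
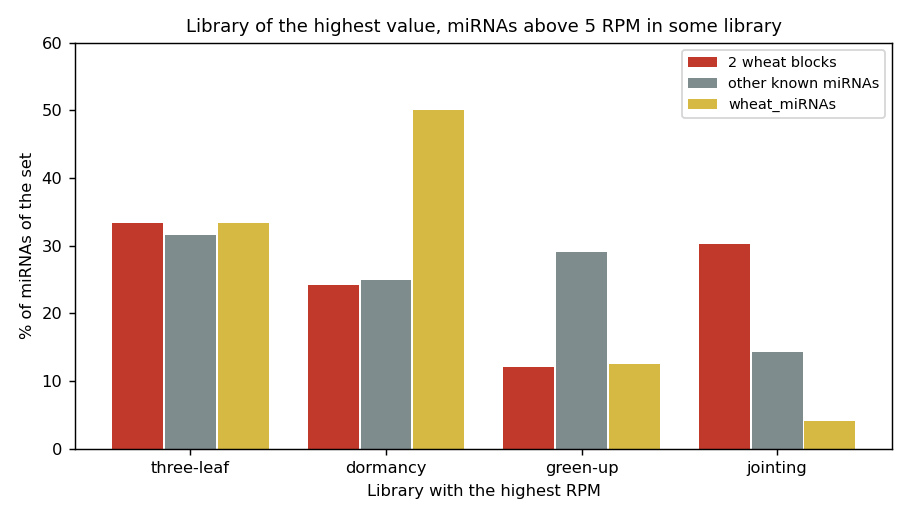
Percentage of miRNAs, among those above 5 RPM in some library, whose highest RPM lay in each of the 4 libraries, for the 33 members, the 196 other known miRNAs and the 48 wheat_miRNAs. The members stand at 30.3% at jointing and 12.1% at green-up, the other known miRNAs at 14.3% and 29.1%. The wheat_miRNAs stand at 4.17% at jointing and 12.5% at green-up.

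Further miRNAs of the crown have had targets mapped by the same cleavage assay. wheat_miR1356, also directed against mTERF mRNAs, had 36.1, 38.1, 25.1 and 15.9 RPM. miR7757-5p had 7455.9, 5976.9, 2804.9 and 3139.8 RPM, and miR5048-5p had 5891.1, 8765.7, 3809 and 1873.7 RPM. Together with wheat_miR259 these were lower at jointing than at the three-leaf stage by more than 2-fold, 4 of the 5 on that list. wheat_miR652 stayed under 5 RPM in every library and was not tested. The study chose miRNAs for this assay among those it had called different between these same libraries. The count can therefore not be set against the 54.6% of all 260 miRNAs that were lower. The log2 changes of wheat_miR1356 (-1.18), miR7757-5p (-1.25) and miR5048-5p (-1.65) do not reach 2-fold once raised by the 1.04 to 1.05 of the scalings. The same choice by change applies to the 4 members with mapped targets. Of these, miR9662a-3p (not under the scalings), miR9674b-5p and miR9772 were lower and miR9676-5p was higher.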

How the data were processed

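Small RNA libraries of 4 crown stages, 1 per stage, were sequenced on a BGISEQ-500 instrument. Using SOAP, the authors removed reads of other RNA classes and of repeats from those of 18 to 30 nt. They then took as known miRNAs the reads that matched a plant miRNA of miRBase 22.1 in BLASTN with fewer than 2 mismatches. Versions of SOAP and BLASTN are not given in the sources used here. The deposited values, headed TPM, are reads per 1000000 mapped reads (RPM), with 1 decimal in rows of known miRNAs and 2 decimals in rows of wheat_miRNAs. Library totals were recovered as the number at which all wheat_miRNA values under 100 RPM (45 to 51 per library) were whole reads within the rounding of 0.005 RPM. Reads of known miRNAs are uncertain by about 1, since rounding moves a value by up to 0.05 RPM.

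Fold changes are log2 ratios of RPM between libraries. A 0 was set to 3 reads, and such fold changes entered counts and medians but are not printed. A miRNA was called at more than 2-fold and more than 5 RPM in either library, the fold and level thresholds of the study. Its DEGseq test was not run because a test on reads of pooled libraries compares libraries and not stages. Intervals of changes and ratios are exact binomial at 95%, and cover counting error only, as no molecular identifiers separated PCR copies from molecules. Alternatives changed the value of a 0, the pseudocount, the level filter, the scaling and the fold threshold. Scripts were tested on simulated data. Python 3.11.15, numpy 2.4.6, scipy 1.17.1 and matplotlib 3.10.9 were used.

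Values in all libraries are given for members with at least 100 RPM in some library, those highest at jointing or higher there than at the three-leaf stage, those listed at 0 in 1 library and above 5 RPM in another, and those that share a family or 15 paired or identical bases with such a member. Further members were named after their values were seen. Members and lists were chosen with earlier results of these data known. Positions in the wheat genome, qRT-PCR and target assays were not analysed here.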

Additional observations from a re-analysis of the deposited data

How the results depend on the processing

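Stages cannot be tested with 1 pooled library each, a 0 may be a value left out below a minimum, and values of a few reads carry wide intervals. No paired analysis was possible because each stage had 1 library, and for the same reason no replicate could be left out. With a 4-fold threshold, the members called were 12 lower and 5 higher from the three-leaf stage to jointing, 1 lower from the three-leaf stage to dormancy, 3 lower and 1 higher from dormancy to green-up, and 6 lower and 5 higher from there to jointing. Without a level filter 1 member was higher at dormancy than at the three-leaf stage and 5 were higher at green-up than at dormancy. No share over all listed miRNAs is given for the 4-fold threshold or without a level filter. These counts can therefore not be set against a background. In the order listed sum, sum without miR159a.1 and miR168a-5p, and median ratio, the scalings gave 1, 1 and 1 members higher from the three-leaf stage to dormancy and 6, 7 and 6 higher from dormancy to green-up. From the three-leaf stage to dormancy, 11.1% of all 252 miRNAs were higher under each scaling. Members lower from dormancy to green-up were 4 by the second scaling, and those lower from green-up to jointing were 8 by the sum of all listed miRNAs and by the median ratio. Members highest at jointing were 17 under each, those highest at the three-leaf stage 9 under the first and second, those highest at dormancy 7 under the second and the median ratio, and those highest at green-up 8 under the second. No scaled share of the other miRNAs stands beside these counts of highest values.

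The median log2 change of members from the three-leaf stage to jointing was -0.56, -0.57 and -0.56 under these scalings, -1.12 without a level filter and -1.83 above 20 RPM. From the three-leaf stage to dormancy it was -0.12, -0.16 and -0.16, and -0.37 above 20 RPM. From dormancy to green-up it was -0.36, 0.032 and -0.26, then -0.44 without a level filter and -0.66 with 1 RPM added. From green-up to jointing it was 0.33, -0.027 and 0.28, and -0.84 above 20 RPM, so its sign depended on the scaling. The log2 change of the summed members from the three-leaf stage to jointing was -0.31, -0.32 and -0.31 under the scalings, -1.25 without miR9662a-3p and -2.22 without miR9672b. Setting a 0 to 1 read moved no count by more than 1.5 times. The cause of these differences was not tested beyond the construction of each alternative.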

Other observations

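A few members paired with or resembled miRNAs of other names in the table. miR9670-3p paired over 17 of 19 bases with wheat_miR1202, which had 1473.2, 1508.27, 963.52 and 571.18 RPM from the three-leaf stage to jointing, against 3.4, 1.7, 9.4 and 2.1 RPM for miR9670-3p. The 2 are shown with the seed in capitals.
miR9670-3p: aGGUGGAAuacuugaagaaga
wheat_miR1202: uUCUUCAAguacuccacuuuu
They did not share a course, since miR9670-3p was highest at green-up and wheat_miR1202 at dormancy. wheat_miR1356, whose sequence pairs with miR9670-3p over the same number of bases, had 36.1, 38.1, 25.1 and 15.9 RPM. miR9675-3p paired over 17 of 19 bases with wheat_miR1826, listed at 0, 55.8, 28.5 and 0 RPM, and miR9674b-3p over 16 of 18 with wheat_miR1327, at 68.1, 90.5, 82.4 and 26.7 RPM. Whether such pairs come from opposite arms of 1 precursor or from opposite strands of 1 locus was not tested.

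The GC content of members was compared between calls. From green-up to jointing the 13 lower members had a median GC content of 40.9% and the 10 higher ones 53.5%. For miRNAs outside the set the medians were 47.6% for 77 lower and 52.4% for 29 higher miRNAs. From the three-leaf stage to jointing the medians were 41.9% and 53.5% for members and 47.6% and 48.9% for the others. The medians were closer from dormancy to green-up, at 36.4% for 7 lower and 40.9% for 3 higher members. In each of these 3 comparisons the higher members had a larger median than the lower ones. Members called in neither direction had the highest medians, 57.1%, 57.1% and 52.4%. These are descriptions without a test, and the part of base composition in library preparation was not tested.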
